A study of Homo sapiens with 25 samples.

Results

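The HOXA, HOXC and HOXD clusters were examined in 4 human lung adenocarcinoma cell lines through the positions of histone marks and bound proteins. The members were chosen by symbol alone, as all protein-coding genes named HOXA, HOXC or HOXD followed by a number, and 28 of them were analysed (10 HOXA, 9 HOXC and 9 HOXD) among 19972 protein-coding genes. The read-through gene HOXA10-HOXA9 was not counted as a member. Chromatin immunoprecipitation followed by sequencing (ChIP-seq), which maps the DNA carried along with an antibody's target, had been done on untreated, formaldehyde-fixed cells of 4 established lines grown in the same serum-containing medium: HCC364, NCI-H2087, NCI-H358 and NCI-H441. NKX2-1, H3K27ac and H3K4me1 were profiled in all 4 lines. NCI-H2087 alone was also profiled for H3K4me3, RNA polymerase II (RNAPolII), CTCF, EP300, c-Jun, FOXA1, FOXA2 and SOX2. Each pair of line and antibody was 1 library with 1 peak list, so no difference between lines had a replicate check, and the lines differ in everything that separates one tumour from another. No transcript level was measured in these libraries, and a peak cannot tell a mark on all copies of a locus from a stronger mark on some of them.

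HOX genes encode homeodomain transcription factors that set position along the body axis of the embryo. They lie in clusters in which the order of the genes follows their order of action, with low numbers (anterior genes) at one end and high numbers (posterior genes) at the other. In cells where a HOX gene is silent its start is commonly held by Polycomb proteins, often together with H3K4me3, whereas H3K27ac and RNAPolII mark active starts and H3K4me1 marks enhancers. CTCF binds between HOX genes and is known to separate active from silent stretches of a cluster. In the developing lung, genes of the middle of the clusters such as HOXA5 take part in branching, and NKX2-1 is the lineage factor of the lung epithelium that the study set out to map.

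The 20 lists held 7426 (EP300) to 122178 (HCC364 H3K4me1) peaks. The H3K27ac lists were similar in length, with 56531 peaks in HCC364, 51527 in NCI-H2087, 47326 in NCI-H441 and 47358 in NCI-H358. The lowest local background of a library, which serves as its relative depth, lay between 2.52 and 2.85 reads for the 12 libraries of NKX2-1, H3K27ac and H3K4me1. All 7 lung epithelium marker genes had H3K27ac at a start in all 4 lines, against 1 of 5 fibroblast, 0 of 4 blood and 0 of 3 endothelium markers. HOXA spans chr7:27095354-27205091, HOXC chr12:53933831-54061030 and HOXD chr2:176082487-176195907 (GRCh38, from 5 kb before the first to 5 kb after the last member), and these 3 windows are called the clusters below.

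Each cluster also carries microRNA genes. The mature miRNAs that the results touch are shown from RefSeq (GRCh38.p14), with the seed (bases 2 to 8) in capitals, because a hairpin inside a marked stretch of a cluster shares its chromatin with the neighbouring HOX genes. The HOXA and HOXC miR-196 copies have the same seed and differ by 1 base, C12A, counted from the 5′ end with the HOXA copy first.
hsa-miR-196b-5p (HOXA): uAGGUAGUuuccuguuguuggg
hsa-miR-196a-5p (HOXC): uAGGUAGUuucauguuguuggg
hsa-miR-615-3p (HOXC): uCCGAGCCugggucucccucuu
hsa-miR-7704 (HOXD): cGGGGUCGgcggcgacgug
The MIR196B hairpin (chr7:27169480-27169563, minus strand, between HOXA9 and HOXA10) lay under an H3K27ac peak and an H3K4me3 peak in NCI-H2087, and had no peak of H3K27ac, H3K4me1 or NKX2-1 within 1 kb in the other 3 lines. The MIR196A2 hairpin (chr12:53991738-53991847, plus strand) had no peak over it in any of the 20 lists, and HCC364 H3K4me1 was the one list with a peak within 1 kb. The MIR615 hairpin (chr12:54033950-54034045, plus strand, inside the HOXC4 and HOXC5 gene bodies) lay under H3K4me3 in NCI-H2087 and had an NKX2-1 peak within 1 kb in all 4 lines. The MIR7704 hairpin (chr2:176188843-176188901, plus strand) lies inside the HOXD1 gene body and lay under H3K4me3 and RNAPolII in NCI-H2087. MIR10B (chr2:176150303-176150412), near HOXD4, had no peak within 1 kb in any list.

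For 19 of the 28 members RefSeq (GRCh38.p14) gave promoter sequence, over 26 starts. The 250 bases before 5 starts are shown because they stand for the chromatin states described below. HOXD1 had H3K27ac over this stretch in 3 lines. HOXA7 had H3K4me3 and RNAPolII in NCI-H2087. HOXC4, whose start HOXC5 shares, and HOXA13 had H3K4me3 and no other peak over the stretch. Within 1 kb of the start the 2 genes differed in NCI-H2087. There HOXC4 also had H3K27ac, RNAPolII, NKX2-1 and CTCF, and HOXA13 had none of these. HOXA10-HOXA9, the outermost start of the HOXA10 locus, lies at the strongest CTCF peak of the 3 clusters. Capitals mark a match, on either strand, to 1 of 6 short motifs. The core of the NKX2-1 site was searched as CAAGTG and that of the FOXA site as TGTTTAC. The AP-1 site was searched as TGANTCA and the CTCF core as AGGGGGC. The joint HOX-PBX site was searched as TGATTNAT, and the TATA box as TATAAA.
HOXD1, chr2:176188418-176188667, plus strand: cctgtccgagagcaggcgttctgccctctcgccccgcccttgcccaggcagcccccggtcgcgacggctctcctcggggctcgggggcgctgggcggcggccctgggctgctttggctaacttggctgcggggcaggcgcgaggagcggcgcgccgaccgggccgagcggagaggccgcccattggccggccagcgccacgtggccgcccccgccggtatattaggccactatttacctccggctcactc
HOXA7, chr7:27156676-27156925, minus strand: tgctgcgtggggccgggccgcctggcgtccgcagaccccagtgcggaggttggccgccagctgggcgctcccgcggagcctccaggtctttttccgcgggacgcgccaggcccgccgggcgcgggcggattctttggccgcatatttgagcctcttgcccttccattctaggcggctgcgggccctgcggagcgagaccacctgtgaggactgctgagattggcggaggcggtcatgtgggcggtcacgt
HOXC4, chr12:54016638-54016887, plus strand: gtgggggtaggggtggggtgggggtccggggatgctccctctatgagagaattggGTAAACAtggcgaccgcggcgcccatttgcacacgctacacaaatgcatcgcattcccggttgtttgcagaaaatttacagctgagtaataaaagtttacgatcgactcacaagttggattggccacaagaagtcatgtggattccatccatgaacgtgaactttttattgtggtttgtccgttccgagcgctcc
HOXA13, chr7:27200092-27200341, minus strand: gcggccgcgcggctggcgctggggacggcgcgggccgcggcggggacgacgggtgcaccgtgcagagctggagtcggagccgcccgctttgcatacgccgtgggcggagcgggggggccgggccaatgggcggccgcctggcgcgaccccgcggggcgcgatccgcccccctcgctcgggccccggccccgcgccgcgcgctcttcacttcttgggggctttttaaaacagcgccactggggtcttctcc
HOXA10-HOXA9, chr7:27180240-27180489, minus strand: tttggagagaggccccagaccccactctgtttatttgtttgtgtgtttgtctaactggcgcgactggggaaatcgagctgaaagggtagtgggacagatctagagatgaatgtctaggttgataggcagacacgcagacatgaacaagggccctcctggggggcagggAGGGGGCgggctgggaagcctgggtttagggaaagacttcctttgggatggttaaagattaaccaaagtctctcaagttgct
The HOXC4 stretch holds the FOXA core on the minus strand, 195 bases before the start, where no FOXA1 or FOXA2 peak lay in NCI-H2087. The HOXA10-HOXA9 stretch holds the CTCF core 82 bases before the start, while the summit of the CTCF peak, chr7:27179921, lies outside the stretch. HOXD1, HOXA7 and HOXA13 hold none of the 6 motifs, and no motif shown overlaps another. Over all 35116 promoter stretches of the same length, 9.50% hold the NKX2-1 core, 2.98% the FOXA core, 6.57% the AP-1 site, 13.3% the CTCF core, 2.48% the HOX-PBX site and 10.7% the TATA box.

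H3K27ac lay near more HOXA and HOXC genes in NCI-H2087 than in the other lines, with HCC364 next, whereas the share of HOXD under peaks was highest in NCI-H441. A member was counted as marked when a peak overlapped its gene body or the 5 kb on either side by at least 1 bp. In NCI-H2087 17 of 28 members were marked, where 71.7% of all protein-coding genes were. In NCI-H358 3 members were marked against 69.6% of all genes, in NCI-H441 3 members against 69.9%, and in HCC364 11 members against 72.1%. With 5 kb flanks the members were therefore below the background of all genes in each line, and furthest below it in NCI-H358 and NCI-H441. HOX genes are short, with a median length of 3919.5 bp against 24170.5 bp for all protein-coding genes, which lowers the chance of an overlap. Among genes of at most 10 kb the members gave 13 of 23 marked in NCI-H2087, 10 in HCC364, 2 in NCI-H441 and 2 in NCI-H358, where all genes of that length gave 53%, 53.5%, 51.3% and 51.6%. On this footing NCI-H2087 and HCC364 stood near the background and NCI-H358 and NCI-H441 stood below it. The width of the window mattered. With 1 kb in place of 5 kb the counts were 10 in NCI-H2087, 3 in HCC364 and 2 each in NCI-H441 and NCI-H358. The shares of all genes were then 68.1%, 68.5%, 66.4% and 66.2%. HCC364 thus stood 1 member above NCI-H441 and NCI-H358. With 20 kb the counts were 24, 22, 11 and 10, against 80.2%, 80.1%, 78.6% and 78% of all genes. At that width NCI-H2087 stood above the background and HCC364 near it. Neighbouring members share peaks: the 3 clusters together held 19 H3K27ac peaks in NCI-H2087 and 8 in HCC364.

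The lines differed in which members were marked. Of the 28 members 8 had H3K27ac in NCI-H2087 alone, a pattern held by 1.57% of all genes: HOXA2, HOXA10, HOXA11, HOXC4, HOXC5, HOXC6, HOXC8 and HOXC11. Another 7 had it in NCI-H2087 and HCC364 and in neither other line, a pattern held by 1.24% of all genes: HOXA6, HOXA7, HOXA9, HOXC9, HOXC10, HOXD12 and HOXD13. HOXA4 was marked in HCC364 alone, against 2.58% of all genes. HOXA3 and HOXD1 were marked in all 4 lines, the pattern of 61.6% of all genes. HOXA5 was marked in every line except NCI-H2087. The remaining 9 members, HOXA13, HOXC12, HOXC13, HOXD3, HOXD4, HOXD8, HOXD9, HOXD10 and HOXD11, were marked in no line, against 20.1% of all genes. By number of lines, 9 members were marked in 1 line (6.36% of all genes), 7 in 2 lines (5.22%) and 1 in 3 lines (6.71%). No member was marked in NCI-H358 alone or in NCI-H441 alone.

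As a share of the window under H3K27ac peaks, HOXA had 17.9% in NCI-H2087, 8.91% in HCC364, 1.26% in NCI-H441 and 0.262% in NCI-H358. HOXC had 4.73%, 0.957%, 0% and 0% in the same order of lines. HOXD had 2.28%, 1.94%, 2.78% and 1.72%. Over the windows of all protein-coding genes the lists covered 4.00%, 5.28%, 3.64% and 3.83%. HOXA was above this level in NCI-H2087 and HCC364 and below it in NCI-H358 and NCI-H441, HOXC was above it in NCI-H2087 only, and HOXD was below it in all 4 lines with little spread between them. HOXC had no H3K27ac peak at all in NCI-H358 and NCI-H441. The local background near a cluster, over the library's median, moved with part of this: for HOXA it was 1.27 in NCI-H2087, 1.09 in HCC364, 0.856 in NCI-H441 and 1.03 in NCI-H358 (median of the NKX2-1, H3K27ac and H3K4me1 libraries, peaks within 1 Mb). For HOXC it was 1.15, 0.980, 1.00 and 0.851, and for HOXD 1.03, 1.09, 1.05 and 1.19. Its part in the differences between lines was not tested.

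**Figure D1:**
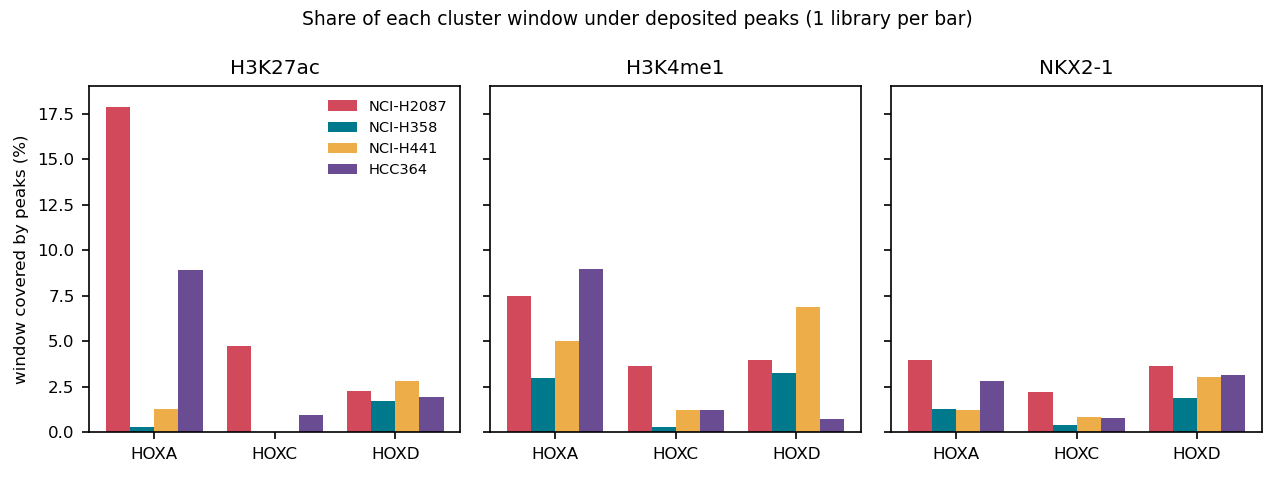
Share of the HOXA, HOXC and HOXD windows (x axis) under peaks of H3K27ac, H3K4me1 and NKX2-1, in percent of the window (y axis), with 1 bar per line and 1 library per bar, so there is no error bar. H3K27ac over HOXA reaches 17.9% in NCI-H2087 and 8.91% in HCC364 and stays at or below 1.26% in the other lines, while HOXD lies between 1.72% and 2.78% in all 4.

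In HOXA the marked stretches of NCI-H2087 and HCC364 were partly different. The widest H3K27ac peak of the cluster, chr7:27167614-27174451 (6838 bp, 19.9-fold over the local background), ran from the HOXA9 side over MIR196B into HOXA10, whose product acts in posterior patterning and in blood progenitors. It was found in NCI-H2087 and overlapped no peak of another line. NCI-H2087 also had H3K27ac at chr7:27110864-27114656 and chr7:27121778-27123370 (17.8-fold and 18.1-fold), over alternative starts of HOXA3, at the start of HOXA7 (7.49-fold) and at HOXA11 (6.50-fold). HCC364 had its widest peak at chr7:27133793-27139012 (5220 bp, 15.3-fold), between HOXA4 and HOXA5, genes of the middle of the cluster. NCI-H358 and NCI-H441 had small peaks inside that stretch (287 bp at 5.57-fold and 522 bp at 8.93-fold), and NCI-H2087 had none there. The highest H3K27ac fold in the 3 clusters was that of HCC364 at chr7:27114955-27117383, inside the HOXA3 gene body (29.5-fold). The same position had 10.3-fold in NCI-H2087 and 6.88-fold in NCI-H441 and no peak in NCI-H358. HOXA13, the most posterior gene, had no H3K27ac in any line.

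**Figure D2:**
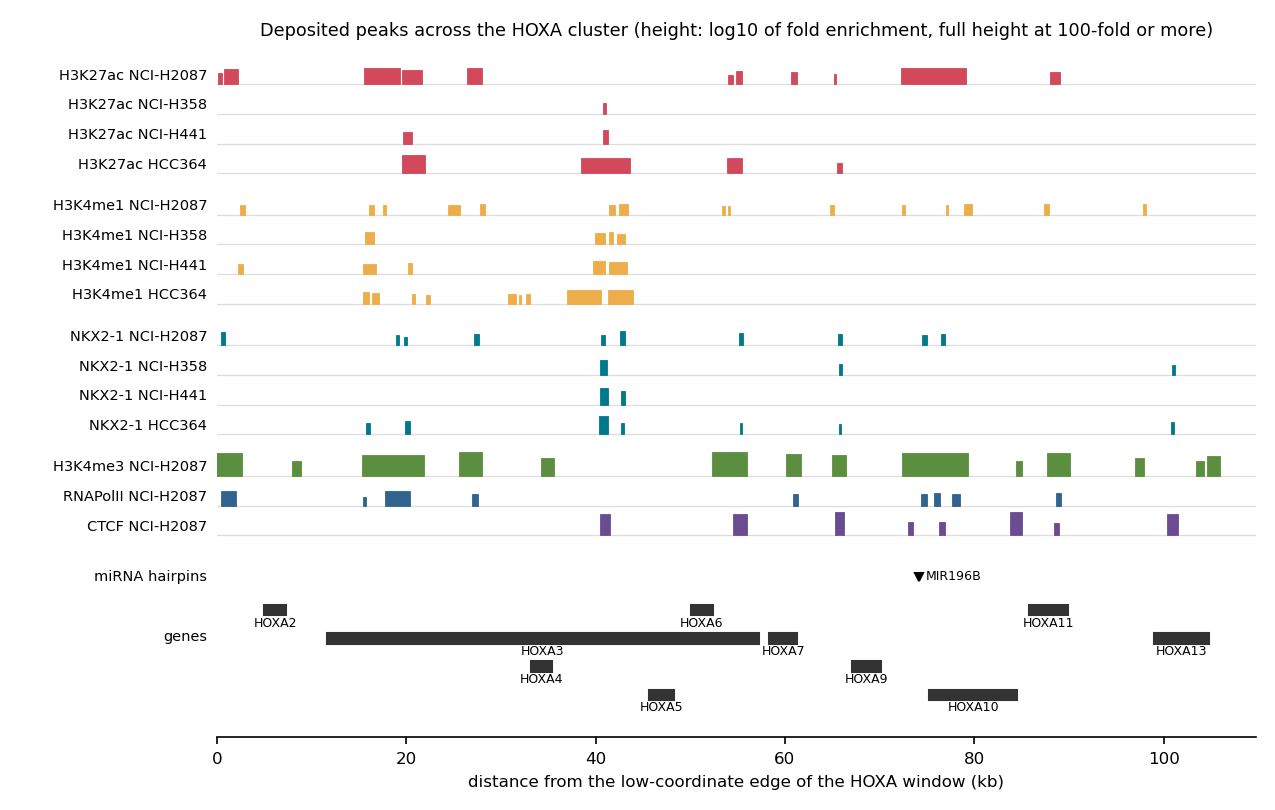
Peaks across the HOXA window, with distance from its low-coordinate edge in kb on the x axis, 1 row per library, and the member genes and the miRNA hairpin below; box width is peak width and box height the log10 of fold enrichment. In NCI-H2087 the H3K27ac and H3K4me3 boxes over MIR196B and HOXA10 have no counterpart in the H3K27ac rows of the other lines, and between HOXA4 and HOXA5 the order is turned, with H3K27ac in every line except NCI-H2087.

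In HOXC the acetylated stretches mostly lay between HOXC10 and HOXC9, at HOXC9 and in the shared HOXC4, HOXC5 and HOXC6 locus. NCI-H2087 had 23.2-fold at chr12:53994938-53996589, over the antisense RNA gene HOXC-AS2, and 23.3-fold at chr12:53999494-54000834, at HOXC9. HCC364 had 1 H3K27ac peak in the whole window, 8.61-fold at chr12:53995245-53996461, inside the first of these. HOXC10 was counted as marked through the edge of its 5 kb flank alone. H3K27ac covered 2.26% of its body and flanks in NCI-H2087 and 0.231% in HCC364. NCI-H2087 had further peaks at HOXC11 and HOTAIR (4.29-fold) and at 2 places in HOXC4, HOXC5 and HOXC6 (4.62-fold and 6.91-fold). The bodies of HOXC4, HOXC5 and HOXC6 overlap in the annotation, so these 3 members carry the same peaks. The posterior genes HOXC12 and HOXC13 had no H3K27ac in any line.

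**Figure D3:**
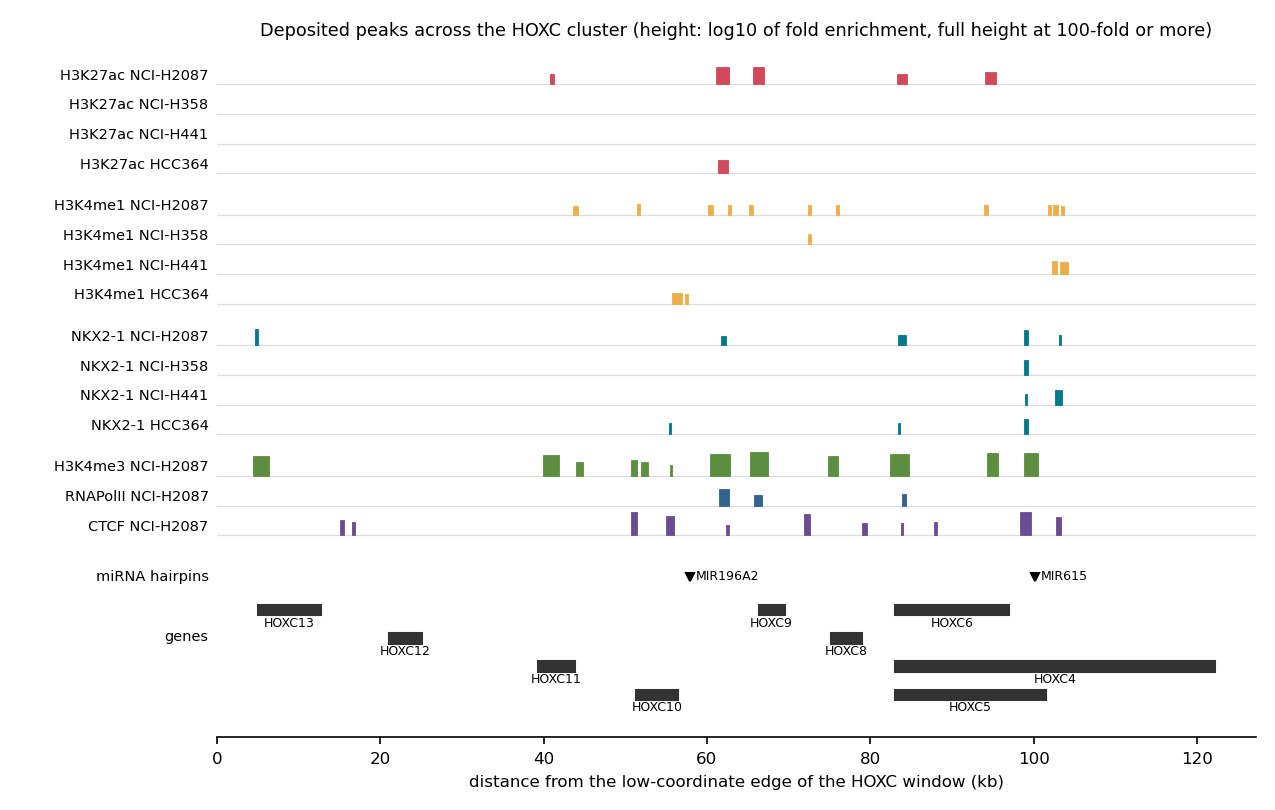
Peaks across the HOXC window, drawn as for HOXA, with distance from the low-coordinate edge in kb on the x axis. The H3K27ac rows of NCI-H358 and NCI-H441 are empty, HCC364 has 1 box, and NCI-H2087 has 5, while the NKX2-1 rows of all 4 lines have a box beside MIR615.

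In HOXD the acetylated places were few and mostly shared. The region beside the HOXD1 start was the 1 merged H3K27ac region of the 22 in the 3 clusters (4.55%) that all 4 lines had, where 23.9% of the 84925 merged regions of the genome were shared by all 4. Its fold was 4.74 in NCI-H2087, 4.25 in HCC364, 8.88 in NCI-H441 and 4.90 in NCI-H358. These folds stood between the 16.7th and 52.6th percentile of their lists. HOXD1, the most anterior gene of the cluster, shares this stretch with the antisense gene HAGLR. A second region, chr2:176178713-176179471 in HAGLR and HAGLROS, had H3K27ac in NCI-H2087 (7.86-fold), NCI-H358 (7.06-fold) and NCI-H441 (8.17-fold) and not in HCC364. A region between HOXD8 and HOXD4, chr2:176140371-176141003, was acetylated in NCI-H358 (16.4-fold), NCI-H441 (8.38-fold) and HCC364 (9.65-fold) and not in NCI-H2087. It lies more than 5 kb from any member and so enters no member's count. Between HOXD13 and HOXD12, NCI-H2087 and HCC364 had 6.33-fold and 5.84-fold. HOXD3, HOXD4, HOXD8, HOXD9, HOXD10 and HOXD11 had none in any line.

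**Figure D4:**
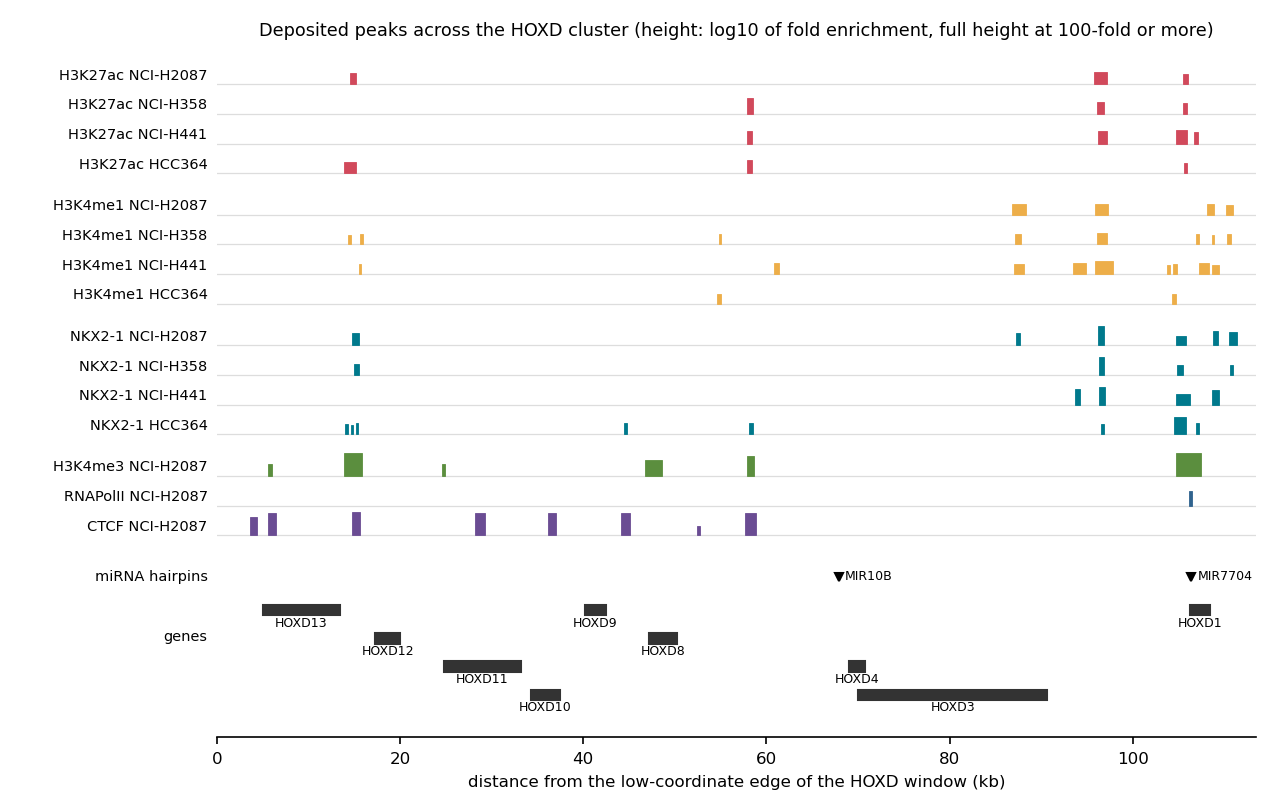
Peaks across the HOXD window, drawn as for HOXA, with distance from the low-coordinate edge in kb on the x axis. H3K27ac boxes sit at the HOXD1 end in all 4 rows, in the stretch between HOXD8 and HOXD4 in every row except NCI-H2087, and none over the bodies of HOXD3 to HOXD11; CTCF boxes line the HOXD13 to HOXD8 side.

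Within 1 kb of a start, H3K27ac was found at 9 members in NCI-H2087 (background 58%), at 1 in NCI-H358 (57.1%), at 1 in NCI-H441 (56.2%) and at 2 in HCC364 (58.7%). HOXD1 was the 1 member with it in all 4 lines, against 50% of all genes. HOXA3 had it in NCI-H2087 and HCC364. The other 7, HOXA7, HOXA10, HOXA11, HOXC4, HOXC5, HOXC6 and HOXC9, had it in NCI-H2087 alone, against 1.28% of all genes. The remaining 19 members had none in any line, against 34.8%. Where no start was given (9 members, 7 of them HOXC), either end of the gene was used. All 4 counts lay below the background, and in NCI-H2087 least so.

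In NCI-H2087 the promoter mark H3K4me3 reached far more HOX genes than H3K27ac or RNAPolII did. It lay over the body and 5 kb flanks of 24 members (background 75.2%), RNAPolII over 12 (63.8%) and CTCF over 22 (75.8%). At the starts, H3K4me3 was found at 19 members (66.8%), RNAPolII at 9 (54.2%) and CTCF at 8 (32.4%). The 9 members with RNAPolII at a start were the 9 with H3K27ac at a start: HOXA3, HOXA7, HOXA10, HOXA11, HOXC4, HOXC5, HOXC6, HOXC9 and HOXD1. The other 10 members with H3K4me3 at a start had neither H3K27ac nor RNAPolII there, a state that 9.26% of all genes were in. They were HOXA2, HOXA4, HOXA6, HOXA13, HOXC8, HOXC10, HOXC11, HOXC13, HOXD8 and HOXD11. Among all 13332 genes with H3K4me3 at a start, 15.5% lacked H3K27ac and 20.3% lacked RNAPolII, against 10 of 19 members for each. Within 1 kb, the members with H3K4me3 at a start thus fell into 9 with both active marks and 10 with neither. Each member was counted over all its starts. The outer HOXA10 start had H3K4me3 (14.7-fold) without H3K27ac or RNAPolII, and HOXC4, HOXC5 and HOXC6 were called by the same peaks. The division also rests on the window. Over the body and 5 kb flanks 7 of 24 H3K4me3 members lacked both, against 7.04% of all genes. The H3K4me3 peaks at HOXA6 and HOXC11 overlapped H3K27ac beyond 1 kb of the start. The count of H3K27ac starts in NCI-H2087 was 16 within 5 kb and 5 at a −log10 q of at least 10. Neither count has a share of all genes beside it.

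**Figure D5:**
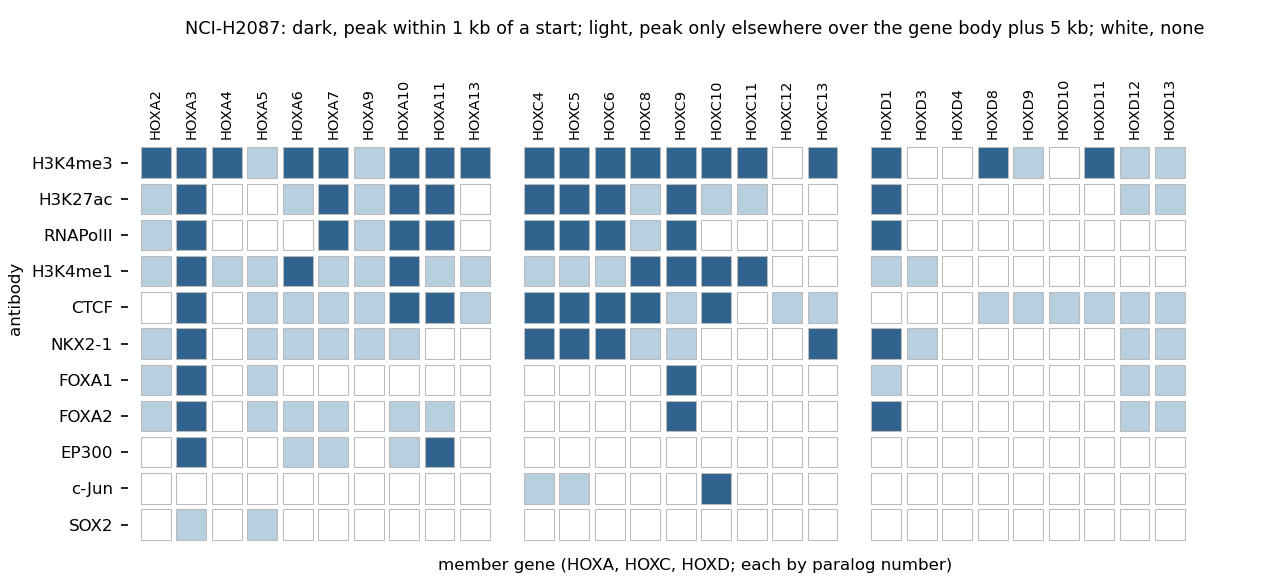
The 28 members (columns, by cluster and paralog number) against the 11 antibodies of NCI-H2087 (rows). Dark cells are peaks within 1 kb of a start, light cells are peaks elsewhere over the gene body plus 5 kb, and the dark cells of H3K27ac and RNAPolII fall on the same 9 columns while H3K4me3 has 19.

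The H3K4me3 peaks covered 30.9% of the HOXA window with 14 peaks and 14.1% of HOXC with 12. In HOXD 6 peaks covered 8051 bp of the 113421 bp. Gene windows as a whole were covered to 2.44%, but they hold longer genes. By start, 67.9% of members had H3K4me3, near the 66.8% of all genes. The widest H3K4me3 peak was chr7:27167748-27174693 (6946 bp, 85.2-fold), which matches the H3K27ac domain over MIR196B and HOXA10. The next was chr7:27110682-27117279 in HOXA3 (6598 bp, 57.4-fold). The highest fold was at HOXC9, chr12:53999062-54001274 (133-fold). Of the 32 peaks 15 overlapped H3K27ac (46.9%, against 68.6% of the whole list) and 10 overlapped RNAPolII (31.3%, against 59.7%). By cluster, H3K27ac overlapped 8 of 14 in HOXA, 5 of 12 in HOXC and 2 of 6 in HOXD. RNAPolII was highest at HOXC-AS2 (18.8-fold), at HOXA3 (12.7-fold) and at HOXD1 (11.8-fold). H3K4me3 at HOXA13 (46.8-fold), HOXC13 (38.9-fold), HOXA4 (28.4-fold) and HOXD8 (18.7-fold) stood without H3K27ac or RNAPolII at the start.

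With all peaks and 5 kb flanks, H3K4me1 was found near the most members in NCI-H2087, as H3K27ac was. For H3K4me1 this order changed with the setting. At a −log10 q of at least 10, NCI-H441 kept 7 members (69.8% of all genes), NCI-H2087 4 (58.3%), HCC364 4 (55.3%) and NCI-H358 3 (61.2%). With the 5000 strongest peaks HCC364 had 3 (11.2%) and NCI-H2087 0 (12.5%). With 20 kb flanks NCI-H2087 and NCI-H358 had 21 each (83.1% and 83.6%). With all peaks and 5 kb flanks, H3K4me1 lay over 19 members in NCI-H2087 (background 74.5%), 6 in HCC364 (76.4%), 10 in NCI-H441 (77.7%) and 10 in NCI-H358 (76%). HOXA3, HOXA4, HOXA5 and HOXD1 had it in all 4 lines, against 62.2% of all genes. HOXA6, HOXA7, HOXA9, HOXA10, HOXA11, HOXA13, HOXC6 and HOXC11 had it in NCI-H2087 alone, against 1.06%. HOXD4, HOXD9, HOXD10, HOXD11, HOXC12 and HOXC13 had it in none, against 13.1%. As a share of the window, HOXA had 7.50% in NCI-H2087, 8.97% in HCC364, 5.01% in NCI-H441 and 3.00% in NCI-H358. In that order of lines HOXC had 3.65%, 1.21%, 1.21% and 0.269%, and HOXD 3.98%, 0.697%, 6.87% and 3.24%. HCC364 thus had the fewest members with H3K4me1 and the largest covered share of HOXA, and its widest peaks (3609 bp and 2642 bp) lay between HOXA4 and HOXA5. The widest H3K4me1 peak of NCI-H441 lay there too (1973 bp), while those of NCI-H2087 (1554 bp) and NCI-H358 (1104 bp) lay in HOXD. At a start, H3K4me1 lay at 7 members in NCI-H2087 (background 42.1%), at HOXA3 and HOXC10 in HCC364 (35%), at HOXD1 in NCI-H358 (43.7%) and at none in NCI-H441 (52.6%).

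NKX2-1 peaks were found over 17 members in NCI-H2087 (background 74.2%), 17 in HCC364 (78.5%), 7 in NCI-H441 (77.1%) and 11 in NCI-H358 (70.9%). HOXA3, HOXA5, HOXC4, HOXC5, HOXC6 and HOXD1 had NKX2-1 in all 4 lines, against 61% of all genes. HOXA11, HOXC11, HOXC12, HOXD4, HOXD10 and HOXD11 had none, against 13.5%. After merging over lines there were 29 NKX2-1 regions in the 3 clusters, of which 4 (13.8%, exact 95% interval 3.89% to 31.7%) were bound in all 4 lines, against 22.3% of 145799 regions of the genome. Intervals here cover counting error only. At a start, NKX2-1 lay at 6 members in NCI-H2087 (HOXA3, HOXC4, HOXC5, HOXC6, HOXC13 and HOXD1, background 45.8%) and at 6 in HCC364 (HOXC10 in place of HOXC13, background 50.8%). In NCI-H441 (45.1%) and NCI-H358 (42.7%) HOXD1 was the 1 member with it.

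The 4 regions bound in every line were of different kinds, and their folds are given for NCI-H2087 first, then NCI-H358, then NCI-H441, then HCC364.
Between HOXA4 and HOXA5, chr7:27135757-27136721 had 4.95-fold, 12.6-fold, 20.2-fold and 32.1-fold, lowest in NCI-H2087, the line without H3K27ac there. It overlapped a CTCF peak of NCI-H2087 (51.3-fold), and the NKX2-1 summits lay 452, 442, 453 and 450 bp from the CTCF summit.
In HOXC4 and HOXC5, next to MIR615, chr12:54032655-54033190 had 15.3-fold, 13.9-fold, 4.88-fold and 13.3-fold, with no H3K27ac or H3K4me1 in any line. In NCI-H2087 it lay under CTCF (108-fold) and H3K4me3 (79.2-fold), and the NKX2-1 summits of the 4 lines lay 176 or 180 bp from the CTCF summit.
In HAGLR and HAGLROS, chr2:176178713-176179471 had 37.0-fold, 26.3-fold, 27.6-fold and 4.57-fold, lowest in HCC364, the line without H3K27ac and H3K4me1 there. In NCI-H2087 it also had c-Jun (9.07-fold), FOXA1 (12.7-fold), FOXA2 (10.2-fold) and SOX2 (5.09-fold).
Beside the HOXD1 start, chr2:176186980-176188717 had 4.06-fold, 4.45-fold, 5.45-fold and 23.5-fold, highest in HCC364, and it was acetylated in all 4 lines. At HAGLR and HOXD1, which are neighbours, HCC364 therefore held the lowest and the highest fold of the 4 lines. Fold is scaled within a library, and these differences had no replicate check.

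The share of NKX2-1 peaks of the clusters that lay on H3K27ac of the same line could not be told from the share of the whole list at these numbers of peaks. In NCI-H2087 12 of 21 peaks did (57.1%, interval 34.0% to 78.2%, whole list 52.5%), in NCI-H358 3 of 8 (37.5%, 8.52% to 75.5%, 51.3%), in NCI-H441 3 of 8 (37.5%, 8.52% to 75.5%, 46.4%) and in HCC364 10 of 18 (55.6%, 30.8% to 78.5%, 51.6%). All 4 intervals hold the share of the whole list. With the NKX2-1 summit required inside the H3K27ac peak, the share in NCI-H358 was 12.5%. H3K4me1 lay under fewer of the cluster peaks in NCI-H2087 (5 of 21, 23.8%, against 61.7%) and in HCC364 (4 of 18, 22.2%, against 62.6%), with upper limits of 47.2% and 47.6%. In NCI-H358 it was 3 of 8 and in NCI-H441 7 of 8, whose intervals hold the whole-list shares of 69.0% and 69.6%. Set against the H3K4me3 list of NCI-H2087, 14 of 21 NKX2-1 peaks of NCI-H2087 (66.7%, against 20.4%), 13 of 18 of HCC364 (72.2%, against 19.5%), 4 of 8 of NCI-H358 (interval 15.7% to 84.3%, against 18.9%) and 2 of 8 of NCI-H441 (25.0%, 3.19% to 65.1%, against 15.4%) overlapped it. The intervals of NCI-H358 and NCI-H441 hold their list shares. Counted from the H3K4me3 side in NCI-H2087, the direction was the other way. NKX2-1 lay on 12 of the 32 cluster H3K4me3 peaks (37.5%), against 55.0% of the whole H3K4me3 list. Overlap with the CTCF list of NCI-H2087 was 8 of 21 in NCI-H2087 (38.1%, 18.1% to 61.6%, whole list 20.6%), 5 of 8 in NCI-H358 (62.5%, 24.5% to 91.5%, 21.7%), 3 of 8 in NCI-H441 (37.5%, 8.52% to 75.5%, 19.1%) and 10 of 18 in HCC364 (55.6%, 30.8% to 78.5%, 25.4%). CTCF was profiled in NCI-H2087 alone, so for the other lines this is an overlap in position between lines. The interval lies above the whole-list share in HCC364 and NCI-H358 and holds it in the other 2 lines. The peaks of a line are neighbours in 1 library and not independent trials, so these intervals describe the counts and test nothing. Counted from the CTCF side, the clusters did not stand above the list in HCC364 or NCI-H358. NKX2-1 lay on 29.6% of the cluster CTCF peaks in NCI-H2087 (whole CTCF list 25.3%), 33.3% in HCC364 (35.7%), 11.1% in NCI-H441 (28.1%) and 18.5% in NCI-H358 (26.7%).

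CTCF, the protein that bounds chromatin loops, had 27 peaks in the clusters of NCI-H2087, 8 in HOXA, 11 in HOXC and 8 in HOXD. Their median fold was 51.3, against 23.5 for the whole list, and 14 of 27 exceeded 50-fold (51.9%, against 25.0%). In HOXD 6 of 8 exceeded it, in HOXA 5 of 8 and in HOXC 3 of 11. The strongest lay at the outermost HOXA10 start, chr7:27179078-27180432 (118-fold, above 99.4% of the list), where H3K4me3 was 14.7-fold and H3K27ac absent. It stands between the acetylated HOXA10 stretch and the HOXA11 start, which also had H3K27ac (6.50-fold) and RNAPolII (8.41-fold) within 1 kb. Next came chr12:54032201-54033485 in HOXC4 and HOXC5 (108-fold) and chr12:53984516-53985306 at HOXC10 (98.6-fold). H3K4me3 overlapped 14 of the 27 (51.9%, against 15.3% of the list). Counted from the H3K4me3 side the clusters stood near the list, with CTCF on 13 of the 32 cluster H3K4me3 peaks (40.6%, against 37.8%). In the HOXD window 6 CTCF peaks of 64.3-fold to 88.5-fold ran from HOXD13 to beyond HOXD8, and no CTCF peak lay over HOXD4, HOXD3 or HOXD1. NKX2-1 of any line overlapped 12 of the 27, in all 4 lines at 2 of them, and 15 were free of NKX2-1, with the shares by line as given above. At chr7:27160644-27161596, between HOXA7 and HOXA9, the NKX2-1 summits of NCI-H2087, NCI-H358 and HCC364 lay 32, 46 and 1 bp from the CTCF summit.

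With 5 kb flanks the remaining factors of NCI-H2087 each lay over a smaller share of the members, which are short genes, than of all genes. FOXA1 and FOXA2, forkhead pioneer factors of the lung, lay over 7 (background 60.1%) and 11 members (63.6%). The histone acetyltransferase EP300 lay over 5 (24.1%), all HOXA: HOXA3, HOXA6, HOXA7, HOXA10 and HOXA11. The AP-1 subunit c-Jun lay over 3 (33.9%), HOXC4, HOXC5 and HOXC10. SOX2 lay over 2 (15.7%), HOXA3 and HOXA5. With 20 kb flanks FOXA1 lay over 18 members (76.3% of all genes) and FOXA2 over 22 (79.7%). EP300 then lay over 9 (32.3%), c-Jun over 8 (47.8%) and SOX2 over 8 (22%). At that width SOX2 stood above its background, EP300 and FOXA2 near it, and FOXA1 and c-Jun below it. FOXA1 and FOXA2 reached 35.7-fold and 44.3-fold between HOXA4 and HOXA5 at chr7:27137952-27138471, where NKX2-1 was bound in NCI-H2087, NCI-H441 and HCC364. At a start, FOXA1 lay at HOXA3 and HOXC9 (background 20.5%), c-Jun at HOXC10 (5.5%) and SOX2 at no member (1.08%).

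The clusters were compared by their covered share over the 4 lines, with an exact two-sided sign-flip permutation test in which the smallest possible p is 0.125. HOXA exceeded HOXC for H3K27ac by 5.65 ± 6.04 percentage points (mean ± SD, n = 4, higher in 4 of 4 lines, exact permutation p = 0.125). HOXA exceeded HOXC for H3K4me1 by 4.53 ± 2.21 points (4 of 4 lines, exact p = 0.125) and for NKX2-1 by 1.26 ± 0.758 points (4 of 4 lines, exact p = 0.125). HOXC lay below HOXD for NKX2-1, with a mean HOXC minus HOXD difference of -1.88 ± 0.446 points (0 of 4 lines higher, exact p = 0.125). Each of these had an adjusted p of 0.281 over the 9 tests (Benjamini-Hochberg, exact permutation). The other 5 comparisons had mixed directions, with exact permutation p between 0.25 and 0.5. With 4 lines no comparison could pass the usual threshold. Without NCI-H2087 the H3K27ac difference between HOXA and HOXC was 3.16 points and that between HOXA and HOXD 1.33 points (4.89 with all 4 lines), and without HCC364 the H3K4me1 difference between HOXA and HOXD was 0.472 points (2.42 with all 4 lines).

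HOXB1 to HOXB9, measured in the same way, had H3K27ac over 18.0% of their window in NCI-H2087, 8.30% in HCC364, 0.835% in NCI-H441 and 0% in NCI-H358. This is the order of lines seen in HOXA. The homeobox genes EVX1 and EVX2, which sit beyond HOXA13 and HOXD13, had no H3K27ac peak in any line, and in NCI-H2087 they had 1 and 2 H3K4me3 peaks. Among 14 noncoding RNA genes of the clusters, HAGLR was the 1 with H3K27ac at a start in all 4 lines. Of the 14, 5 had none at a start in any line (34.8% of all protein-coding genes), among them HOTTIP, HOXA-AS3 and HOXC-AS3. HOTTIP, which is known to act on the posterior HOXA genes, had 2 H3K4me3 and 2 CTCF peaks in NCI-H2087.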

How the data were processed

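The data were 20 peak lists in narrowPeak format, 1 per library. The 5 input libraries were not used here. On hg38 (GRCh38), the submitters' processing notes name MACS2 in versions 2.1.1 and 2.2.7.1, Bowtie2 2.2.9, Trimmomatic 0.36, SAMtools 1.9 and bedtools. They do not say which MACS2 made which list. The fold column deposited by the authors was read as a linear ratio of the summit over the local background, as the narrowPeak format of MACS2 has it. Whether the inputs served as controls is not stated, so the folds and the local background may or may not be corrected for input. The −log10 p and −log10 q values deposited by the authors are those of the peak caller, and the lowest −log10 q of a list lay between 3.00 and 3.14. The score column deposited by the authors is the −log10 q on another scale and was not used in any result.

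Peaks on chromosomes 1 to 22 and X were kept and joined to RefSeq genes (GRCh38.p14) by an overlap of at least 1 bp, in Python 3.11.15 with pandas 2.3.3 and scipy 1.17.1. What passes the caller's threshold moves with sequencing depth and antibody, so the absence of a peak does not show the absence of the protein. Background shares are the same counts over all 19972 protein-coding genes. A gene of the HOXA cluster and 1 of the cofactor list are not reported here, and the HOXA window starts from the members analysed. Pileup and local background were solved from fold and p where −log10 p was under 300, and the code was tested on simulated data. Shares have exact Clopper-Pearson 95% intervals. Peaks of the 4 lines were merged where they overlapped, and a merged region was shared when each line had a peak in it. All members and EVX1 and EVX2 are described, HOXB by counts, and of each other list at most 3 genes are named, those with H3K27ac at a start in the fewest lines. Genes named in counts of 5 or fewer were chosen after their values were seen. The members and the lists were chosen with earlier results of these data known.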

Additional observations from a re-analysis of the deposited data

How the results depend on the processing

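Of 104 recounts of members with a peak, 50 stayed within 1.5 times of the reported count, and the rest moved as follows. With the gene body plus 1 kb, H3K27ac gave 10 members in NCI-H2087 (68.1% of all genes) and 3 in HCC364 (68.5%). H3K4me1 gave 3 in HCC364 (70.3%), 5 in NCI-H441 (73%) and 4 in NCI-H358 (71.3%). NKX2-1 gave 8 in both NCI-H2087 (67.7%) and HCC364 (72.4%), 4 in NCI-H441 (70.6%) and 5 in NCI-H358 (64.6%). In NCI-H2087 that window gave 13 members for CTCF (67.1%), 2 for EP300 (21.5%), 3 for FOXA1 (52.5%), 6 for FOXA2 (55.5%) and 1 for SOX2 (13.9%). With the gene body plus 20 kb, H3K27ac gave 22 in HCC364 (80.1% of all genes), 11 in NCI-H441 (78.6%) and 10 in NCI-H358 (78%). H3K4me1 gave 16, 18 and 21 in the same lines (85.1%, 85.4% and 83.6%), and NKX2-1 26, 12 and 20 (88.8%, 87.4% and 82.6%). In NCI-H2087 that window gave 19 for RNAPolII (71.5%), 9 for EP300 (32.3%) and 8 for c-Jun (47.8%). It gave 18 for FOXA1 (76.3%), 22 for FOXA2 (79.7%) and 8 for SOX2 (22%). With the 5000 strongest peaks, H3K27ac kept 2 members in NCI-H2087 (22% of all genes), 1 in HCC364 (24.7%) and 0 in NCI-H358 (22.9%) and NCI-H441 (23.4%). H3K4me1 kept 3 in HCC364 (11.2%) and 0 elsewhere (12.5% to 12.9%), and NKX2-1 kept 0 in all 4 lines (11.5% to 12.6%). H3K4me3 kept 2 (31.8%), RNAPolII 1 (29.5%) and CTCF 12 (15.4%). FOXA1, FOXA2, SOX2, EP300 and c-Jun kept 0 (10.1% to 18.2%). At a −log10 q of at least 10, H3K4me1 kept 4 members in NCI-H2087 (58.3%) and 3 in NCI-H358 (61.2%). NKX2-1 kept 10 in HCC364 (74.9%), EP300 0 (12.4%) and c-Jun 1 (29.7%). Requiring the summit inside the window, or comparing genes of at most 10 kb (chosen after seeing the data), moved no count by more than 1.5 times. H3K27ac within 5 kb of a start gave 16 members in NCI-H2087, 11 in HCC364, 3 in NCI-H441 and 2 in NCI-H358. Within 1 kb at a −log10 q of at least 10 it gave 5 in NCI-H2087, 1 in HCC364 and 0 in NCI-H358, and among the 20000 strongest peaks 3 in NCI-H2087, 1 in HCC364 and 0 in NCI-H441 and NCI-H358. The start recounts have no share of all genes beside them. Fewer peaks or a narrower window lower all these counts by construction, and no further cause was tested. Under each of these windows and thresholds NCI-H2087 had more acetylated members than any other line. Of 72 recomputed cluster differences 68 kept their direction, and leaving out each line in turn reversed none. With the 20000 strongest peaks the H3K27ac difference HOXC minus HOXD became 0.322 points, and that of H3K4me1 was 0.00, with no such peak in either cluster. The NKX2-1 difference HOXA minus HOXD (-0.616 points) turned to 0.0816 with windows of fixed width on the summits and to 0.0225 with 50 kb flanks. The share of NKX2-1 peaks on H3K27ac stayed within its wide interval in all 12 recomputations, though in NCI-H358 it fell to 12.5% with the summit inside the peak. Apart from the cluster differences, which were taken within each line, no paired analysis was possible because each line and antibody is 1 library without a replicate. With 1 library a line, depth, antibody yield and threshold limit every missing peak.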

Other observations

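The neighbours and partners of the clusters were marked in more lines than most cluster genes, which lay below the background. Of all protein-coding genes 50% had H3K27ac at a start in all 4 lines, 5.4% in 3, 4.09% in 2, 5.73% in 1 and 34.8% in none. The lists below stand beside these shares. Of 9 genes that flank the clusters, 7 had H3K27ac at a start in all 4 lines. JAZF1, a zinc finger gene beyond the HOXA cluster, had none at the start and 3 to 11 peaks over its body, SKAP2 had a start peak in 1 line, and ATP5MC2 in 4. Among 12 chromatin regulators known to act on HOX genes, 10 had H3K27ac at a start in all 4 lines. The exceptions were the Polycomb genes BMI1 (2 lines) and CBX7 (3 lines), and DOT1L, a histone methyltransferase, had it in 4. Of 8 genes for HOX cofactors, 5 had it in all 4 lines, PBX4 in 1, and MEIS3 and PKNOX2 in none. Of 8 genes of the retinoic acid pathway, which is known to switch on anterior HOX genes, 4 had it in all 4 lines. CYP26A1, a retinoic acid degrading enzyme, had it in 1 line, and ALDH1A2 and CYP26B1 in none.

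Both places where H3K27ac was present in HCC364, NCI-H358 and NCI-H441 and absent in NCI-H2087, between HOXA4 and HOXA5 and between HOXD8 and HOXD4, overlapped a CTCF peak of NCI-H2087 (51.3-fold and 79.8-fold). CTCF was not profiled in the other lines, so whether it is present there was not tested. Both places were picked by these values, and the share of all acetylated regions that overlap CTCF is not given here. In NCI-H2087 8 of the 27 cluster CTCF peaks did overlap H3K27ac (29.6%, against 18.6% of the whole CTCF list). The place between HOXD8 and HOXD4 also had H3K4me3 in NCI-H2087 (41.4-fold).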
